A study of Mus musculus with 2 samples.

Results

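NAD carries electrons in energy metabolism and is also used up as a substrate by sirtuins and ADP-ribosyltransferases, so cells rebuild it continually. In skeletal muscle most of it is salvaged: Nampt turns nicotinamide into nicotinamide mononucleotide, the riboside kinases Nmrk1 and Nmrk2 make the same mononucleotide from nicotinamide riboside, and the adenylyl transferases Nmnat1 (nucleus) and Nmnat3 (mitochondria) complete NAD. Nadk then phosphorylates NAD to NADP in the cytosol, and Nnt, a proton pump of the inner mitochondrial membrane, uses NADH to reduce NADP to NADPH in the matrix. Sirt1 in the nucleus and Sirt3 in mitochondria are deacylases that consume NAD.

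These 8 genes (Nmrk2, Nampt, Nmnat1, Nmnat3, Nadk, Nnt, Sirt1 and Sirt3) were read by 12 of the 55672 probes kept, and made up 8 of 27466 genes named on the array. Probes were taken by gene name, and the set was chosen by the log2 differences of Nmrk2 and Nnt between these same arrays, both being lower in N2ICD-mTG. The differences of these genes are therefore a description, and nothing is supported by them.

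The samples were total RNA of tibialis anterior muscle, a fast-twitch muscle of the lower leg, from adult male C57BL/6 mice. The N2ICD-mTG group was 1 sample from a transgenic mouse carrying the activated form of the receptor Notch2 (N2ICD, its intracellular part), and the control group was 1 sample with the genotype given as control. The labels do not name the promoter that drives the transgene, whether the control was a littermate, or whether RNA of several mice was pooled. Background on the strain bears on Nnt: the C57BL/6J substrain carries a deletion inside Nnt and lacks the protein, while other C57BL/6 substrains have an intact gene. The labels give no substrain for either mouse, and which Nnt allele each carried was not tested.

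Each group being 1 array, the differences lack a replicate check and no test was possible. Genotype, animal, dissection and array cannot be told apart. Both arrays lay on 1 slide and were read in 1 scan. No spot was saturated, and 24982 of 59305 spots on the N2ICD-mTG array and 24916 on the control array were well above background. The number of arrays limits the precision. Of the 2 Notch2 probes, the one at position 7448 had signals of 221 in N2ICD-mTG and 6.01 in control, where it was not well above background, and the one at position 10129 had 179 in N2ICD-mTG and 189 in control. All 6 defining genes of the muscle fibre were bright on both arrays, with alpha-actin (Acta1) at signals of 482673 in N2ICD-mTG and 461834 in control. In bulk muscle, fewer cells of a type and less RNA per cell cannot be told apart.

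The sequences below are parts of the probes that carried the Nmrk2 and Nnt readings, each a stretch of 30 of the probe's 60 bases, 5′ to 3′ in the sense direction, with coordinates of the whole probe on mm9. They are shown because Nnt was seen by 1 of its 3 probes and Nmrk2 has a lone probe. Capitals mark AATAAA, the hexamer of the usual polyadenylation signal.
Nmrk2, position 662, chr10:80662033-80662092, minus strand: ctggacagcagggcctgagatgttctgact
Nnt, position 4091, chr13:120124335-120124394, minus strand: aaccatctgagtAATAAAtgagttcataaa
Nnt, position 3763, chr13:120142585-120142644, minus strand: ggagggaccaacattgttctgatgtggagg
Nnt, position 5102, chr13:120123318-120123377, minus strand: gagacatttttgggtttcagaactggcaga
Positions count from the start of the transcript record each probe was designed on, which for the Nnt probe at 3763 is another record than for the other two. Of the 3 Nnt stretches, the hexamer was in that of the measured probe. In all, 3 of the 12 probes held it (1 each of Nadk, Nnt and Sirt3), against 10.1% of 55681 probes searched on the printed strand.

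Nmrk2, the muscle riboside kinase (chromosome 10), had a signal of 10561 in N2ICD-mTG, against 29462 in control. The probe was bright on both arrays and clearly lower in N2ICD-mTG. After each array was scaled to its 75th percentile (signals of 190.4 in N2ICD-mTG and 168.9 in control), the log2 level was 5.79 in N2ICD-mTG and 7.45 in control. The log2 difference, N2ICD-mTG minus control, was -1.65 ± 0.20, or 3.14-fold lower, where the error is the one Feature Extraction assigned to the spots and holds no spread between animals. Spots of one probe at this brightness differed with an SD of 0.05 on the log2 scale. Nmrk2 was the 16th lowest of 13665 genes measured on both arrays. The authors' deposited table, where the gene has its older name Itgb1bp3, gave 3.111-fold down.

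Nnt, the mitochondrial transhydrogenase (chromosome 13), had a signal of 545 in N2ICD-mTG, against 1089 in control, at the probe at position 4091. The log2 level was 1.52 in N2ICD-mTG and 2.69 in control. This made a log2 difference of -1.17 ± 0.20 (error assigned to the spots), or 2.25-fold lower, against a spot noise SD of 0.08 at this brightness. It was the 70th lowest of the 13665 genes, and the authors' deposited table gave 2.227-fold down. All directions here are relative to the typical gene: when the arrays were aligned on their spike-in spots the median of all genes lay at 0.48, and there Nmrk2 was at -1.17 and Nnt at -0.69, short of 2-fold. On that scale 92.4% of all genes were above 0.

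The other 2 Nnt probes were not well above background on either array. The probe at position 5102, which lies 1017 bases further along the gene, had signals of 8.17 in N2ICD-mTG and 5.85 in control. The probe at position 3763, at 18250 bases to the other side, had 5.84 in N2ICD-mTG and 5.47 in control. They give no fold, so the Nnt difference rests on 1 probe with 1 spot per array. The measured probe is annotated to a coding and to a non-coding RefSeq record of Nnt.

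**Figure D1:**
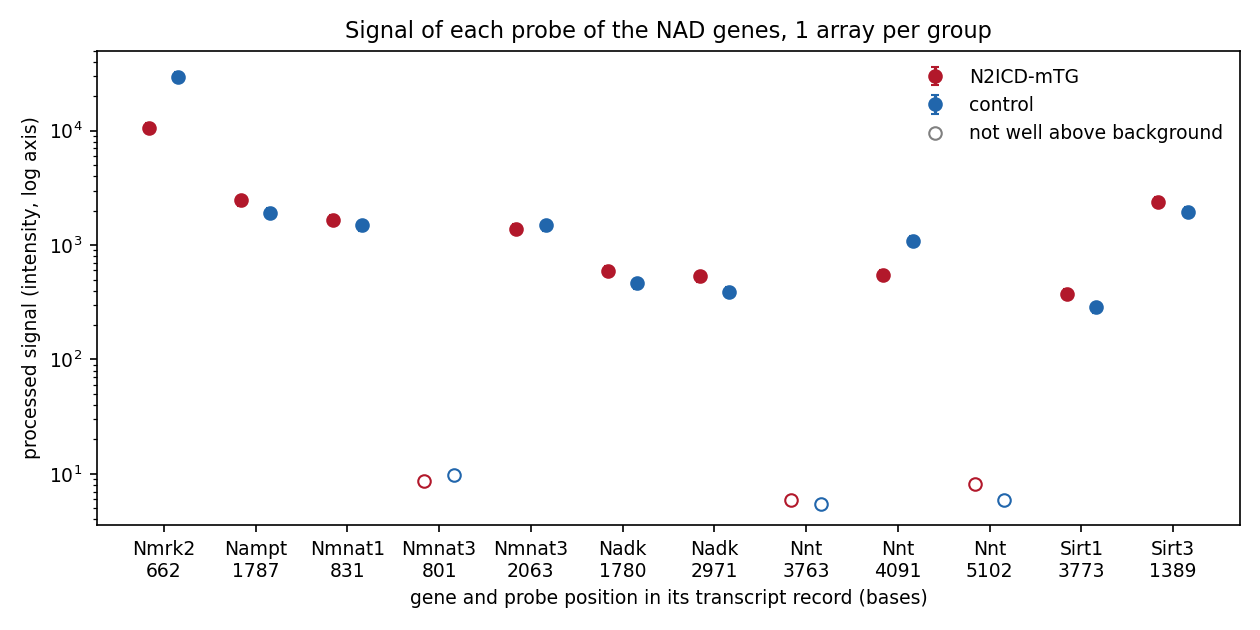
Processed signal (intensity, log axis) of each of the 12 probes of the NAD genes on the N2ICD-mTG array (red, left of each pair) and the control array (blue, right), with the probe's position under the gene name. Bars, mostly hidden by the points, are the error Feature Extraction assigned, and open circles are signals not well above background. Nmrk2 and the Nnt probe at 4091 lie visibly lower in N2ICD-mTG, and 2 Nnt probes and 1 Nmnat3 probe lie at background.

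The other salvage enzymes lay close to the typical gene. Nampt, which makes the mononucleotide from nicotinamide (chromosome 12, 33535475 to 33535534), had signals of 2458 in N2ICD-mTG and 1905 in control, a log2 difference of 0.20 ± 0.20 (error assigned to the spots). Nmnat1, the nuclear adenylyltransferase (chromosome 4, 148842959 to 148843018, minus strand), had 1661 in N2ICD-mTG and 1489.9 in control. Scaled to the 75th percentile, which was 190.4 in N2ICD-mTG and 168.9 in control, this was a log2 difference of -0.02 ± 0.20. The probes of Sirt3, Nnt at 3763 and 4091, and Nadk at 2971 had 0 reading frames with no stop codon over the whole length. The share among all probes was not computed, so nothing on coding sequence is read from these counts. Probes such as those of Nmrk2, Nampt and Sirt1 had 1 such frame. That of Nmnat1 had 2:
Nmnat1, position 831: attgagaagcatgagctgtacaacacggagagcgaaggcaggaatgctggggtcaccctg
Nmnat3, the mitochondrial adenylyltransferase (chromosome 9, 98311751 to 98311810), had 1396 in N2ICD-mTG and 1489.8 in control at the probe at position 2063. The log2 difference was -0.27 ± 0.20, which on the spike-in scale turned to 0.21, as that of Nmnat1 turned to 0.46. Another Nmnat3 probe, at position 801 of a different transcript record, stayed near background on both arrays, with signals of 8.60 in N2ICD-mTG and 9.78 in control.

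Nadk, the cytosolic NAD kinase (chromosome 4), had 2 probes that gave like values. At position 1780 its signals were 592 in N2ICD-mTG and 463 in control, and at position 2971 they were 532 in N2ICD-mTG and 392 in control. The log2 differences were 0.18 ± 0.21 and 0.27 ± 0.21. No other of the 8 genes had more than 1 measured probe. The sirtuins were alike: Sirt1 (chromosome 10, 62781827 to 62781886) had signals of 375 in N2ICD-mTG and 285 in control, a log2 difference of 0.22 ± 0.21, and Sirt3 (chromosome 7, 148049581 to 148049640) had 2404 in N2ICD-mTG and 1946 in control, a difference of 0.13 ± 0.20.

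Of the 8 genes, 2 were at least 2-fold lower, the 2 the set was built around, where 0.893% of all 13665 genes were at least 2-fold lower. Since these values chose the set, nothing is read from that share. None was at least 2-fold higher, a size that 1.42% of all genes reached. The other 6 genes ran from -0.27 to 0.23 with a median of 0.16, and 4 of them were above 0. The median over all 8 genes was 0.06, that of all genes measured 0.01. Of the 9 measured probes, 2 differed by more than 2 errors, 3 by between 1 and 2 errors and 4 by less than 1. The 2 were those of Nmrk2 and Nnt, whose values chose the set. The share among all probes was not computed, so nothing is read from these counts.

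**Figure D2:**
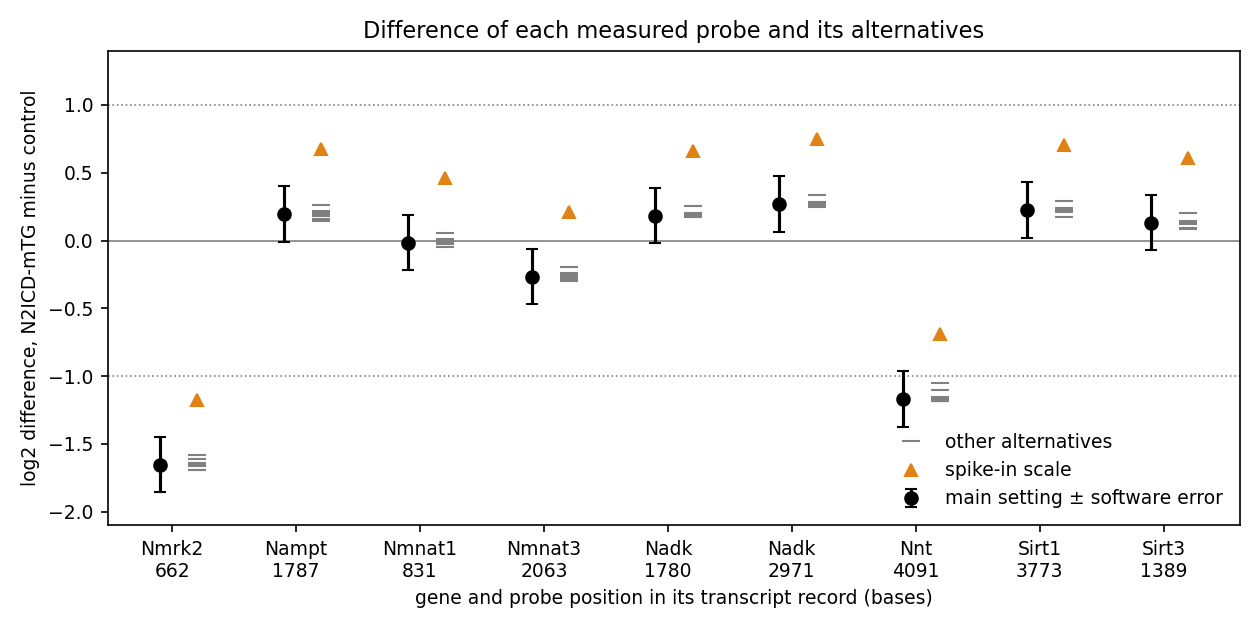
Log2 difference, N2ICD-mTG minus control, of the 9 measured probes in the main setting (black, bars the error Feature Extraction assigned to the spots), under the spike-in scale (orange triangles) and under the other alternatives (grey dashes). Dotted lines mark 2-fold. Nmrk2 stayed past 2-fold lower under every alternative drawn, and Nnt under all but the spike-in scale, where it was at -0.69.

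**Figure D3:**
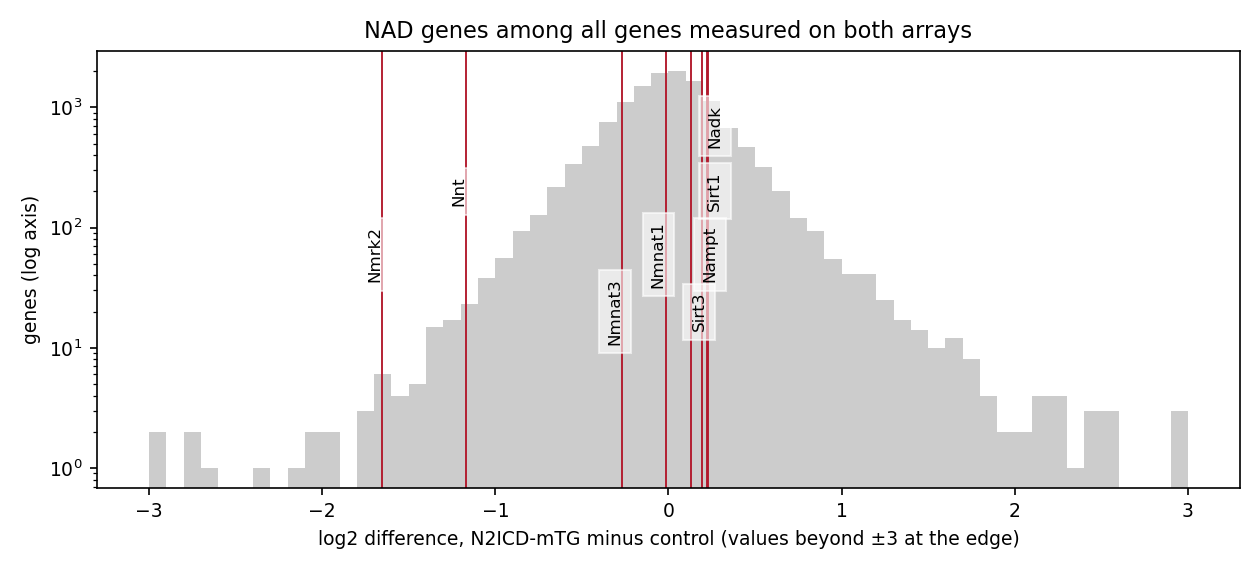
Number of genes (log axis) by log2 difference, N2ICD-mTG minus control, for the 13665 genes measured on both arrays, with the 8 NAD genes as red lines. Nmrk2 at -1.65 and Nnt at -1.17 lie in the lower tail, and the other 6 lie in the central mass.

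The wider NAD pathway was described from lists of genes that are not among the 8. Of 52 listed genes for making or using NAD, 36 had a value from each array. At least 2-fold lower were 0 of the 36, where 0.893% of all genes were, and at least 2-fold higher 0, where 1.42% were, so the counts lie near the background. They divided into 19 above 0 and 17 below, with a median of 0.00 and a range of -0.81 to 0.86. Above 0 were 50.7% of all 13665 genes. Nmrk2 and Nnt lie below that range, which the choice of the set fixes in large part, and nothing is read from it. The range leaves out genes with a bound alone, such as Nt5e.

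Synthesis from tryptophan, a route best known from liver, was hardly read: 2 of its 9 genes were measured on both arrays. Haao, which makes quinolinate, had signals of 45.0 in N2ICD-mTG and 70.2 in control, a log2 difference of -0.81, and Afmid, the formamidase, lay at -0.13. Both signals of Haao are dim, and with normexp, another background correction, its difference was -0.40. Kmo, a hydroxylase of this route, was well above background in N2ICD-mTG alone, with signals of 34.6 in N2ICD-mTG and 20.3 in control, at least 1.21-fold higher. It is named after its values were seen.

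Salvage and the nicotinic acid route (Preiss-Handler pathway) had 11 of 17 genes measured, 6 above 0 and 5 below, with a median of 0.00. Naprt, which starts the nicotinic acid route, had signals of 542 in N2ICD-mTG and 627 in control, a log2 difference of -0.38. Nmrk1, the other riboside kinase, lay at -0.35, with dim signals of 35.6 in N2ICD-mTG and 40.2 in control. Pnp, a phosphorylase that releases nicotinamide from the riboside, lay at 0.28 and Nudt13, a NADH pyrophosphatase, at 0.26. Nt5e, an ectonucleotidase, was well above background in control alone, with dim signals of 17.4 in N2ICD-mTG and 41.1 in control, a bound of 1.71-fold lower. It too is named after its values were seen.

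Among the NAD consumers, 23 of 26 genes were measured, 13 above 0 and 10 below, with a median of 0.02. Art3 and Art5, of the ADP-ribosyltransferase family by name, stood highest, and whether either consumes NAD was not tested. Art3 had mean signals of 8298 in N2ICD-mTG and 4058 in control, a log2 difference of 0.86 that was the same to 2 decimals in both of its probes. Art5 had 2079 in N2ICD-mTG and 1203 in control, a log2 difference of 0.62, with 0.61 and 0.62 in its 2 probes. Parp16, an ADP-ribosyltransferase of the endoplasmic reticulum, lay at -0.48, the mean of -0.19 and -0.76 in 2 probes. The nuclear sirtuin Sirt6 lay at -0.45. Neither the DNA repair enzyme Parp1 at -0.23 nor the NAD glycohydrolase Cd38 at -0.25 came near 2-fold.

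Around Nnt, the sources and users of NADPH had 20 of 22 genes measured, 10 above 0 and 10 below, with a median of -0.01 and none past 2-fold. The folate enzyme Mthfd2l was highest at 0.47, with signals of 169 in N2ICD-mTG and 108 in control. Its relative Mthfd2 was well above background in N2ICD-mTG alone, with dim signals of 40.4 in N2ICD-mTG and 27.2 in control. The bound was 1.32-fold higher. The peroxidase Gpx1 lay at -0.40, Aldh4a1 at -0.39 and the malic enzyme Me1 at 0.21. Among further mitochondrial makers of NADPH, Idh2 lay at -0.20, Me3 at -0.14 and Glud1 at 0.09.

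Shuttles that move NADH into mitochondria and the lactate dehydrogenases had 10 of 11 genes measured, with a median of -0.03 and none past 2-fold. Gpd1, the cytosolic glycerol phosphate dehydrogenase, lay at -0.43. Ldha lay at -0.37 over 3 probes and Ldhb at -0.37. The malate carrier Slc25a11 was the highest at 0.25.

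Nmrk2 was also described as a muscle protein that binds integrin beta 1, so laminin and integrin genes were read beside it. Of 7 measured, 5 were above 0, where 50.7% of all genes were, and 1 was at least 2-fold higher, where 1.42% of all genes were. With 7 genes nothing particular to the list is read from these counts. Itga7, the laminin receptor subunit of the muscle fibre, had signals of 26853 in N2ICD-mTG and 8493 in control, a log2 difference of 1.49 or 2.81-fold. Lama2, a chain of muscle laminin, lay at 0.72, and its 2 probes gave 0.71 and 0.72. Itgb1, the beta 1 subunit itself, lay at 0.09, the mean of -0.06 and 0.23 in 2 probes. Itgb1bp2 and Ilk lay at -0.26 and -0.15.

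Of 8 genes for energy and clock regulators that have been tied to Nmrk2 or Nampt, 7 were above 0, where 50.7% of all genes were, 0 passed 2-fold, and the median was 0.26, where that of all genes was 0.01. Arntl, a clock activator that acts on Nampt with Clock, had signals of 398 in N2ICD-mTG and 185 in control, a log2 difference of 0.93. Clock lay at 0.32, beside the 0.20 of Nampt. The coactivator Ppargc1a lay at 0.62, with 0.57 and 0.66 in its 2 probes, and the AMP-activated kinase subunit Prkaa2 at 0.29.

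**Figure D4:**
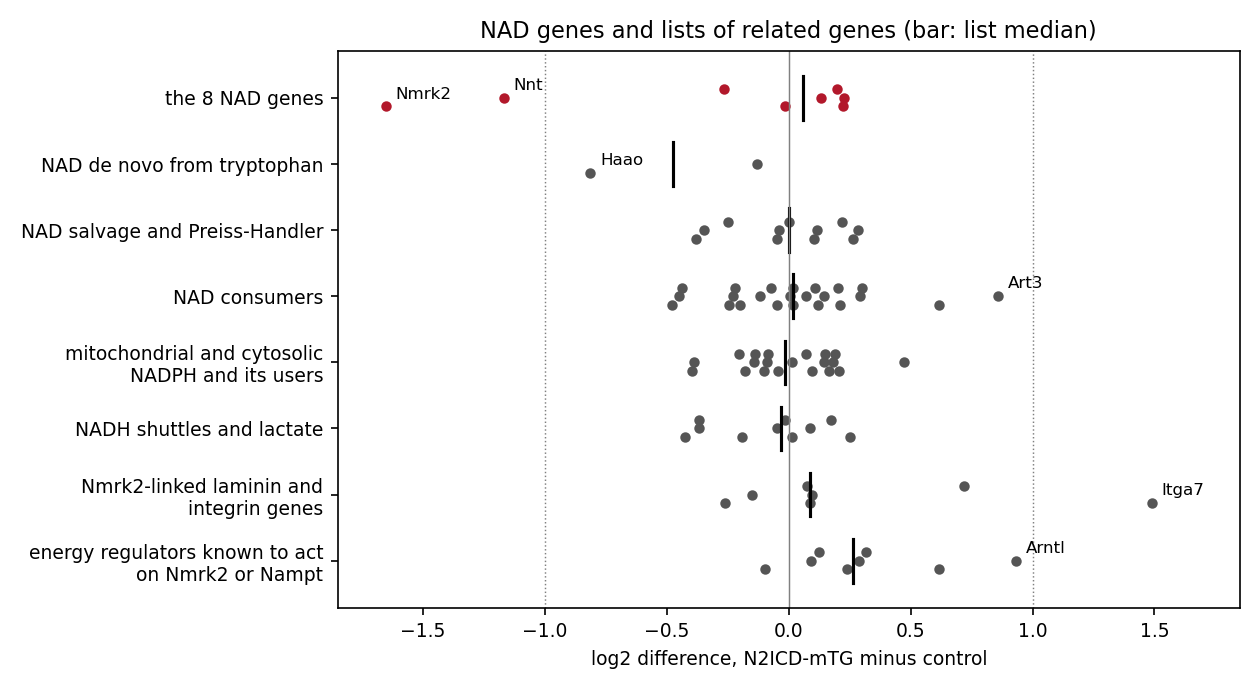
Log2 difference, N2ICD-mTG minus control, of the 8 NAD genes (red) and of the measured genes of 7 related lists (grey), with a black bar at each list's median and dotted lines at 2-fold. Nmrk2 and Nnt lie to the left of every gene of the 7 lists, as the choice of the set largely fixes, and Itga7 at 1.49 is alone beyond 2-fold to the right.

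Markers of fibre type and of other cells were read as well. All 5 slow fibre genes were above 0, with a median of 0.96, and their summed level (signal relative to the array's 75th percentile) was 407 in N2ICD-mTG and 209 in control. Nearly all of that sum was 1 gene, the light chain Myl3, with 97.9% of it in N2ICD-mTG and 98.2% in control, and the other 4 summed to 8.74 in N2ICD-mTG and 3.86 in control. Myh7, the slow myosin heavy chain, alone passed 2-fold among them, with signals of 805 in N2ICD-mTG and 154 in control, a log2 difference of 2.21. Of the 6 fibre genes 5 were below 0, at a median of -0.14 and a summed level of 9853 in N2ICD-mTG and 10834 in control. The 6 fibroblast genes had a median of -0.27 (4 below 0), with summed levels of 482 in N2ICD-mTG and 594 in control. The 6 macrophage genes had a median of -0.27 (4 below 0), with 7.55 in N2ICD-mTG and 9.56 in control. The 5 endothelial genes had -0.34 (4 below 0), with 22.5 in N2ICD-mTG and 28.5 in control. Kdr made up 51.2% of that sum in N2ICD-mTG and 58.1% in control. The other endothelial genes summed to 10.96 in N2ICD-mTG and 11.95 in control. Above 0 were 50.7% of all genes in this setting, and 92.4% on the spike-in scale. On that scale 5 of 6 fibre, 6 of 6 fibroblast, 5 of 6 macrophage and 3 of 5 endothelial genes were above 0. The direction of these 4 lists thus rests on the scale. The 5 slow fibre genes were all above 0 there too. Satellite cell markers (3 of 4 measured, 2 above 0 and 1 below) had a median of 0.14, with summed levels of 18.4 in N2ICD-mTG and 11.6 in control. Cdh15, at 0.73, made up 94.7% of that sum in N2ICD-mTG and 90.7% in control. Adipocyte markers (4 of 5 measured, 2 above 0 and 2 below) had a median of 0.15, with 35.8 in N2ICD-mTG and 28.3 in control. Fabp4 made up 90.6% of this sum in N2ICD-mTG and 88.7% in control. Smooth muscle markers (3 of 3 measured, 1 above 0 and 2 below) had -0.08, with 38.5 in N2ICD-mTG and 42.1 in control. Myf5 and Lep, defining markers of satellite cells and adipocytes, were not well above background on either array. The part of these differences in the Nmrk2 and Nnt values was not tested.

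The promoter of Nmrk2 is shown because it belongs to the largest difference of the 8 genes. It is the RefSeq sequence of assembly GRCm38.p6, chr10:81202038-81202287 on the minus strand, from 250 bases before the gene's start up to that start, 5′ to 3′. Capitals mark CAGGTG, an E-box, and TATAAA.
Nmrk2: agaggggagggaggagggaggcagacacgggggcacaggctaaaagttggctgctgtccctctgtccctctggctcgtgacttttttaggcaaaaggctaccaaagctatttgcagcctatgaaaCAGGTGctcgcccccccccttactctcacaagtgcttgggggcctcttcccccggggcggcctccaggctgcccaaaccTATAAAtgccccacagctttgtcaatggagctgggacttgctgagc
Motifs were searched as exact letters on both strands in windows of 300 bases, 10 of which belonged to 7 of the 8 genes. Nnt had no window, so it was not searched for any motif. Nmrk2 was the only one of the 7 genes with TATAAA, which 13.6% of all 32851 windows held. CAGGTG was in windows of Nmrk2 and Nmnat1, and in 20.2% of all. These 2 motifs were chosen after the sequence was read. GTGGGAA, the core of the motif of RBPJ, the DNA-binding partner of Notch, was in a window of Nadk alone, against 6.38% of all. CACGTG, the E-box of clock factors, was in Nadk and Sirt1 (7.15% of all), and AAGGTCA, part of the site of estrogen-related receptors, in Nmnat3 alone (4.72% of all). A match is no evidence of binding.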

How the data were processed

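Tibialis anterior RNA was labelled with Cy3, per the labels' protocols, and read on 2 arrays, 1 per group. Per the file headers, the authors obtained the intensity of each spot from Agilent Feature Extraction, version 10.10.1.1, background-subtracted and detrended within each array, with probe coordinates on mm9. The authors' deposited table gives per probe a fold (ratio) without sign and, for either array, an intensity and a log2 value. The sources used here do not say how it was made.

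Log2 processed signals were reduced by each array's 75th percentile over 59305 non-control spots. Control spots and 215 spots with outlier flags were left out, spots of a probe were averaged, and a gene was the mean of its measured probes, those that both arrays flag as well above background. Where only 1 array does so, a bound is given, against the higher of the dim probe's value and the lowest value well above background. Accessions were renamed through a GRCm38.p6 table. Differences of ± 1 on the log2 scale count as 2-fold. The error of a difference combines both spots' software errors. Named were all 8 genes and, per list, the genes past 2-fold and up to 4 with the largest difference. A few others (Parp1, Cd38, Idh2, Me3, Glud1, Itgb1, Kmo, Nt5e, Mthfd2, Acta1, Myh7, Myl3, Kdr, Cdh15, Fabp4, Notch2, Myf5, Lep) were picked with their values in view. The genes and lists were chosen with earlier results of these data known. The steps were tested on simulated data with spot noise and planted changes. These data held no spread between animals or dissections, so the test does not bear on that spread. Alternatives were normexp (offset 50), 5 other scalings, looser filters, flagged spots kept, the brightest probe, the deposited table, and thresholds of 1.5-fold and 3-fold. Software was Python 3.11.15, pandas 2.3.3, statsmodels 0.14.6, R 4.3.3 and limma 3.58.1.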

Additional observations from a re-analysis of the deposited data

How the results depend on the processing

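The direction of Nmrk2 and Nnt did not turn under any of 10 alternatives for probes. For these 2 probes the looser filters and the keeping of flagged spots left the value as it was. The deposited table holds the same intensities, so the 10 are not separate checks. Nmrk2 ran from -1.69 to -1.17 and Nnt from -1.19 to -0.69, the highest value of each being that on the scale set by 7 E1A spike-in probes. That scale moved the median of all genes from 0.01 to 0.48, so Nmnat3 turned from -0.27 to 0.21 and Nmnat1 from -0.02 to 0.46 (0.01 under normexp). Member genes at least 2-fold lower numbered 2, and 1 (Nmrk2) on the spike-in scale, without a filter on dim probes, which averages in the 2 dim Nnt probes, and at a threshold of 3-fold. The median over the 8 genes was 0.54 on the spike-in scale and that of the 36 other NAD pathway genes 0.48. Those genes at least 2-fold higher numbered 0, and 2 on the spike-in scale, 1 without a filter and 2 at 1.5-fold. Those at least 2-fold lower numbered 0, and 1 with probes above background on at least 1 array, 2 without a filter and 1 at 1.5-fold.

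Among all genes, 122 were at least 2-fold lower and 194 higher. Normexp gave 43 lower and 81 higher, probes above background on at least 1 array 328 and 364, no filter 968 and 835, a threshold of 1.5-fold 661 and 694, and 3-fold 20 and 48. The spike-in scale gave 25 and 897, a share of higher calls of 97.3%, where the main setting had 61.4%. Of 33 values for other named genes and lists, 33 moved by more than the spot noise SD of 0.14 on the spike-in scale, 7 under normexp and 3 without a filter. These include changes of direction: of 13 named list genes below 0, 12 turned above 0 on the spike-in scale, reaching at most 0.35 (Naprt 0.10, Nmrk1 0.13, Gpd1 0.05, Ldha 0.11, Gpx1 0.08, Aldh4a1 0.09, Sirt6 0.03 and Ilk 0.33 among them), and Haao at -0.34 did not. There 35 of the 36 other NAD pathway genes were above 0, where 19 were in the main setting, and 5 named genes newly passed 2-fold (Arntl, Art3, Art5, Lama2, Ppargc1a). Under the other alternatives none of the 26 named genes changed sign, while list medians close to 0 did. Normexp gave Haao -0.40, Parp16 -0.24, Nmrk1 -0.14, Clock 0.13 and Mthfd2l 0.29. No paired analysis was possible because each group has 1 array. Signal over background limits Haao, Nmrk1, Kmo, Nt5e, Mthfd2 and the dim Nnt and Nmnat3 probes.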
